A study of Homo sapiens with 59 samples.

Results

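The transcriptome of Jurkat cells grown for 3 days under phenylalanine restriction was compared with that of Jurkat cells of the matching phenylalanine control. Jurkat is an established human T cell leukaemia line that grows in suspension. The 5 restricted libraries were labelled as grown with 25% of the phenylalanine and collected on day 3. The 5 control libraries were labelled phenylalanine control and collected on the same day; the labels give no amount of phenylalanine for the control medium and no other treatment or genetic change for either group. These 10 libraries are part of a set of 59 in which 7 amino acids were restricted singly. Messenger RNA levels were taken as the normalised counts that the authors deposited, which are estimated reads per gene divided by a factor for each library. A gene was a member of the comparison if its mean over these 10 libraries reached 10 normalised counts, which 17021 of the 29215 genes listed did. LGALS1 lay just inside this limit with a mean of 10.0 normalised counts, and MAP3K2-DT lay just outside it with 9.99. Nothing in the labels states that libraries of 1 group were grown as separate cultures; p-values therefore describe library-to-library spread only, and that spread may be technical. In RNA from whole cultures, a change in the RNA of every cell and a change in the share of cells in a given state cannot be told apart.

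Phenylalanine is an essential amino acid that lymphocytes import through carriers of large neutral amino acids and charge onto its tRNA with a synthetase built of FARSA and FARSB subunits. Shortage of an amino acid is known to act through uncharged tRNA on the kinase GCN2 (gene EIF2AK4), which leads to translation of the factor ATF4, and through lowered mTORC1 activity. Secretory and membrane proteins fold in the endoplasmic reticulum (ER), where chaperones such as HSPA5 (BiP) bind nascent chains. The genes of these chaperones are induced by the factors XBP1 and ATF6 when unfolded protein accumulates, a programme called the unfolded protein response.

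Jurkat identity was checked on the deposited values. All 16 T-lineage markers, CD3E and LCK among them, were measured, and 0 of the 16 passed the test in limma (1 higher and 2 lower at an unadjusted p below 0.05); without restricted library 2 and control library 1, which are described next, 3 rose and 3 fell. Their summed level ranged between 72504 and 96302 normalised counts in restricted libraries and between 70799 and 80361 in control libraries. Differences were tested with limma on log2(normalised count + 1), with p-values adjusted by the Benjamini-Hochberg procedure over all 17021 genes, and a gene was called below an adjusted p of 0.05.

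Control library 1 and, less so, restricted library 2 stood apart from the rest. The median correlation of control library 1 with its own group was 0.874, against 0.959 to 0.972 in the other 9 libraries. Messenger RNA of cytosolic ribosomal proteins took 5.94%, 10.1%, 5.39%, 5.79% and 5.50% of the counts in restricted libraries 1 to 5, against 12.9%, 8.33%, 7.30%, 8.76% and 8.46% in control libraries 1 to 5. Within each group the highest share was thus that of restricted library 2 and of control library 1. Markers of cells other than T cells were also raised in control library 1. The sum of the 5 fibroblast markers in the table was 267 to 351 normalised counts in restricted libraries, against 2706 in control library 1 and 312 to 349 in the other 4 controls, with COL3A1 at 746 and COL1A2 at 564 in control library 1. The sum of the 4 myeloid markers in the table was 0.764 to 14.6 in restricted libraries, against 467 in control library 1 and 2.86 to 18.4 in the other 4 controls, with S100A9 at 424 and LYZ at 32.1 in control library 1. The B-lineage, NK-lineage and erythroid sums, over 5, 3 and 4 markers, lay at 528 to 677, 98.6 to 125 and 144 to 246 in restricted libraries, against 599 to 752, 86.8 to 126 and 102 to 208 in control libraries. CD79A made up most of the B-lineage sum and EPOR most of the erythroid sum. Single markers of these lineages set control library 1 apart, where PAX5 was at 53.5, CD79B at 41.1, KLRD1 at 51.2 and NCAM1 at 11.7 normalised counts. In the other 9 libraries PAX5 lay at 0 to 3.19, CD79B at 2.51 to 12.8, KLRD1 at 6.91 to 32.4 and NCAM1 at 54.7 to 96.8. The epithelial sum was 730 to 854 in restricted libraries, against 2480 in control library 1 and 1182 to 1374 in the other controls, where the splicing regulator ESRP1 made up most of it. The part of these differences in the results was not tested. The count of each gene list is therefore also given without restricted library 2 and control library 1, that is, over the other 8 libraries.

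**Figure D1:**
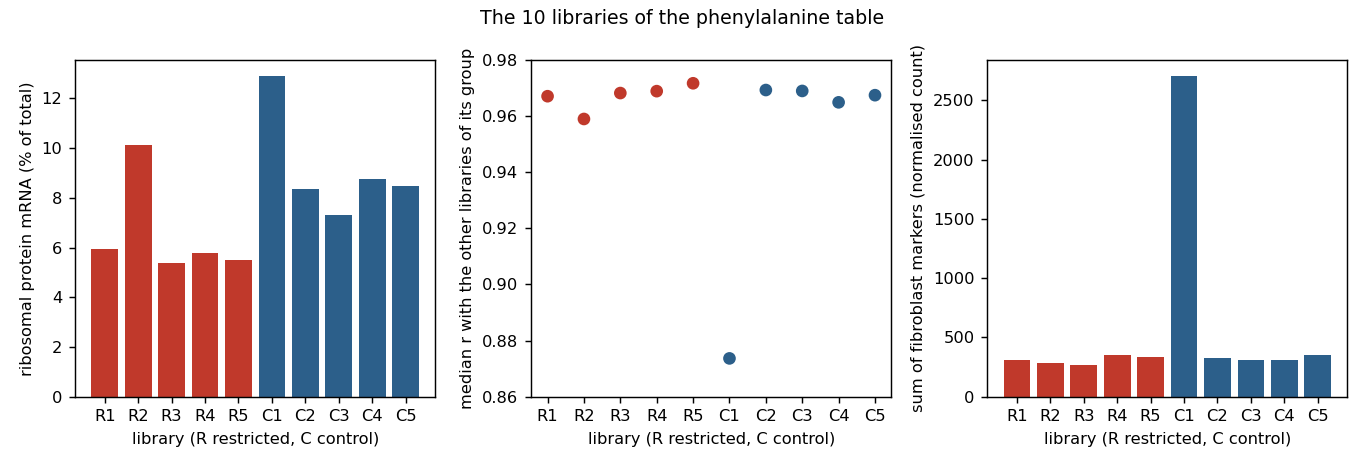
Measures of library quality for restricted libraries R1 to R5 (red, left) and control libraries C1 to C5 (blue, right): the percentage of counts in mRNA of ribosomal proteins, the median Pearson correlation with the other libraries of the group, and the summed normalised counts of fibroblast markers. Control library 1 is highest in ribosomal protein mRNA and fibroblast markers, at 12.9% and 2706, and lowest in correlation, at 0.874; restricted library 2 reaches 10.1% ribosomal protein mRNA against at most 5.94% in the other restricted libraries.

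Restriction of phenylalanine changed 1736 of 17021 genes (10.2%), of which 700 rose (4.11%) and 1036 fell (6.09%). The median log2 fold change over all genes tested was 0.03. A change of at least 2-fold was called for 417 genes (2.45%), with 129 higher and 288 lower under restriction. In 1983 genes (11.7%) the 5 restricted values did not overlap the 5 control values. Without restricted library 2 and control library 1 the calls numbered 4338 (25.5%), of which 2012 rose (11.8%) and 2326 fell (13.7%), and 1719 of the 1736 calls were among them in the same direction; list counts over these 8 libraries are to be read against the last 2 shares. Without control library 1 alone 2508 genes were called, without restricted library 1 alone 1133 and without restricted library 4 alone 1106. Of the 1736 calls, 965 were made again in the same direction with each of the 10 libraries left out in turn. The excess of falls depended on scaling: with all libraries scaled to equal totals, which moved the median of all genes by 0.118 on the log2 scale, 67.0% of the called genes were higher under restriction, against 40.3% as deposited.

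Genes were grouped by function into 43 lists of 8 to 78 measured genes. Chaperones of the ER lumen had the highest share of falling genes among the lists on secretion, and mRNA of ribosomal proteins and translation factors, sterol synthesis, glycolysis and mitosis also held many falls. Fewer list members rose, and the largest rises among them were those of the arrestin genes TXNIP and ARRDC4.

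**Figure D2:**
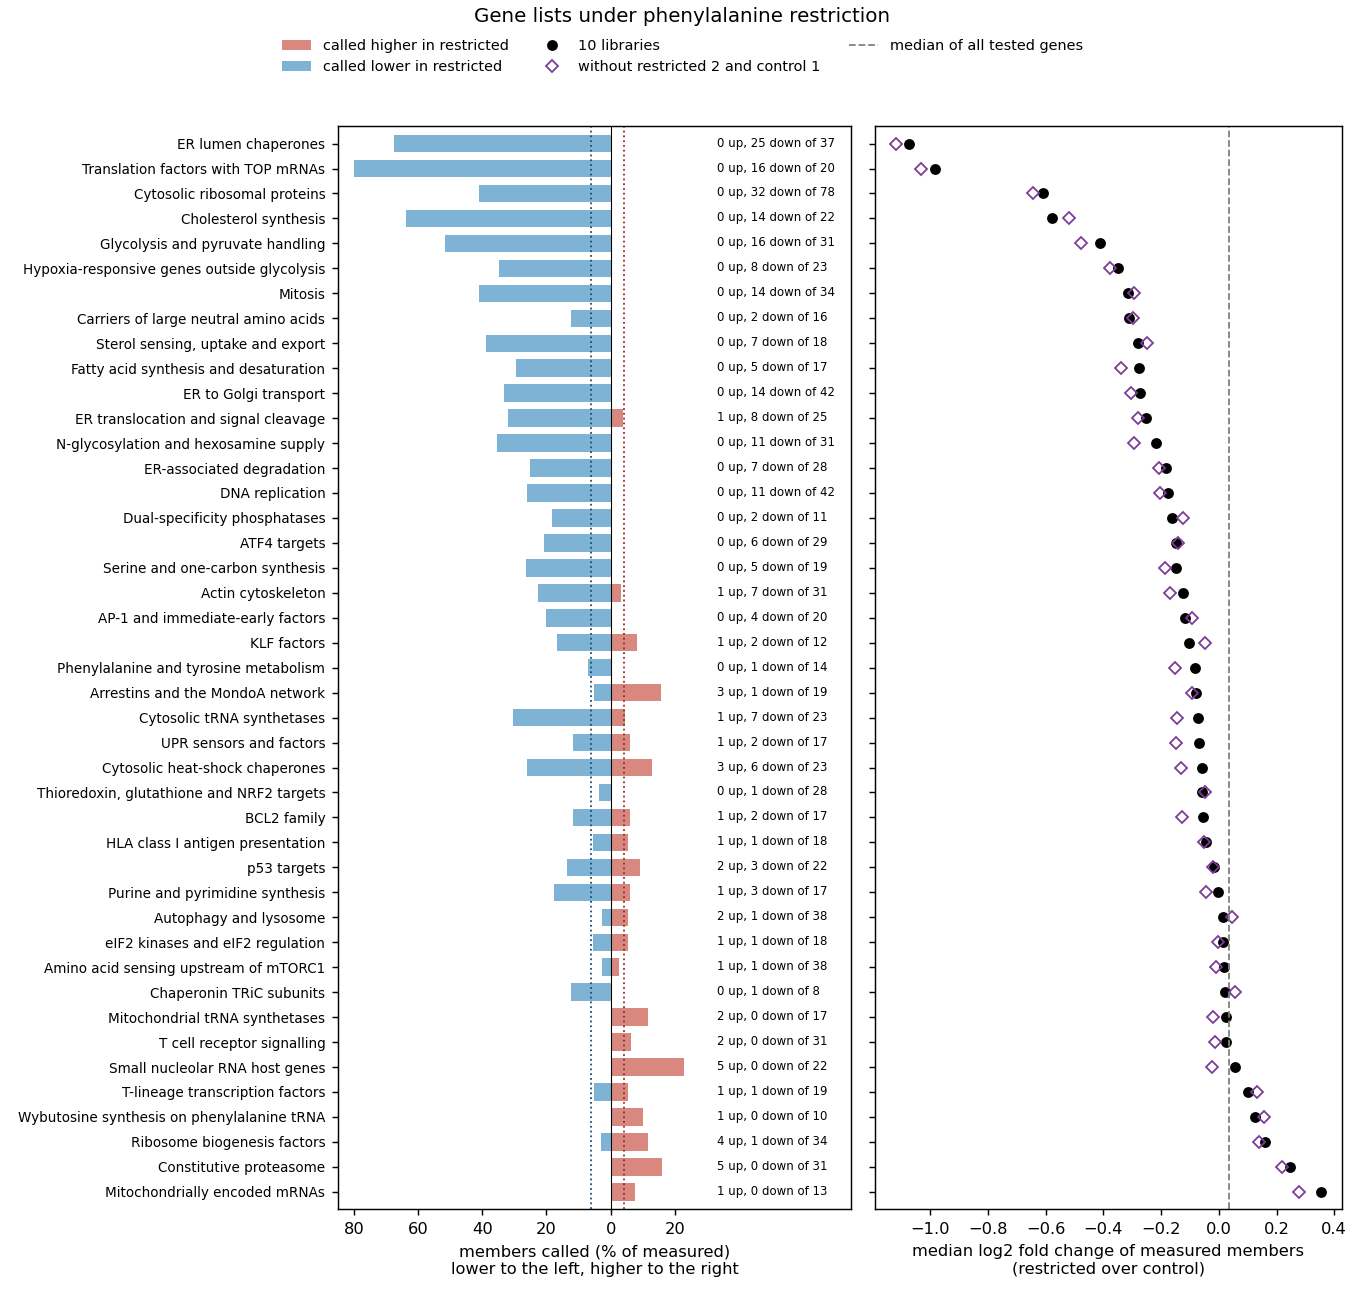
Left, the percentage of measured genes of each of 43 functional lists called lower (bars to the left) or higher (bars to the right) under phenylalanine restriction, with dotted lines at the shares over all genes tested, 6.09% lower and 4.11% higher; right, the median log2 fold change of each list over all 10 libraries (circles) and without restricted library 2 and control library 1 (diamonds), with a dashed line at the median of all genes, 0.03. The ER lumen chaperones (25 of 37 lower), the translation factors with TOP mRNAs (16 of 20 lower) and cholesterol synthesis (14 of 22 lower) extend far to the left of the dotted line.

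The 15 largest falls, among genes with a higher group mean of at least 100 and no overlap between groups, were led by cytosolic heat-shock genes and ER chaperones. HSPA6, HSPA1A and HSPA1B encode stress-inducible HSP70 proteins, and HSP90B1, SDF2L1, HSPA5, CRELD2, MANF, PDIA4 and CALR encode proteins of the ER lumen; these 10 are described with their groups. MYL4, a myosin light chain gene, fell to a mean of 3.79 ± 4.22 normalised counts under restriction, against 107 ± 43.7 in control (SD, n = 5 each; log2 fold change -5.03, SE 0.67, adjusted p = 0.000596). ACTG2, which encodes smooth muscle actin, had 3.37, 13.2, 12.5, 21.3 and 23.8 normalised counts in restricted libraries 1 to 5, against 94.5, 106, 149, 165 and 138 in control libraries 1 to 5 (log2 fold change -3.24). SDCBP2, which encodes a PDZ-domain adaptor, averaged 37.2 ± 13.2 under restriction and 162 ± 18.5 in control, and the lymphocyte GTPase gene GIMAP4 averaged 35.0 ± 7.60 and 151 ± 16.4, with log2 fold changes of -2.16 and -2.10. All 5 restricted values of these 4 genes lay below all 5 control values. The histone gene H2AC19 completed the list at -3.29 on the log2 scale (adjusted p = 0.0401). Its values in restricted libraries 1 to 5 were uneven, at 1.12, 3.15, 66.4, 56.8 and 70.1 normalised counts, against a control mean of 188 ± 43.8. Without restricted library 1 its log2 fold change was -2.50. Its call was lost without restricted library 2 and control library 1 (adjusted p = 0.0667). It was also lost without either of these alone, and without restricted library 1 or control library 2.

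The 15 largest rises were of mixed kind. TXNIP, ARRDC4 and KLF10 are described with their groups. DOK3, an adaptor protein gene of immune cells, had 557, 388, 522, 492 and 464 normalised counts in restricted libraries 1 to 5, against 137, 163, 109.6, 188 and 153 in control libraries 1 to 5, a 3.24-fold rise with no overlap (log2 fold change 1.70, SE 0.16, adjusted p = 4.85e-05). KCND1, a voltage-gated potassium channel gene, averaged 362 ± 43.6 under restriction and 132 ± 40.5 in control, and ZDHHC11, a palmitoyltransferase gene, averaged 105 ± 25.5 and 29.1 ± 10.1 (SD, n = 5 each). Log2 fold changes were 2.16 for VWA7, 1.90 for SAP25, a SIN3-associated protein gene, 1.72 for QRICH2 and 1.56 for the pseudogene CLUHP10. The rise of SLX1A-SULT1A3, a readthrough transcript that shares exons with its neighbours, was 3.61 over 10 libraries and 2.44 without restricted library 2 and control library 1, so its size and its share of reads are uncertain. The remaining 4 carried only an identifier in the files, among them ENSG00000284976 with 48.1, 194, 83.6, 93.2 and 164 normalised counts in restricted libraries 1 to 5, against 35.2, 0, 0, 0 and 0.880 in control libraries 1 to 5; without restricted library 2 and control library 1 its log2 fold change was 6.26.

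The ER chaperone genes carry known control elements near their start sites, and the windows of 3 genes on which the results turn are printed here for reference. Windows of 250 bases before the annotated start were taken from RefSeq (build GRCh38.p14), which matched 11405 of the 17021 genes tested. The first 2 are an ER chaperone pair and hold the ER stress response element, CCAAT and CCACG separated by 9 bases of any kind, on either strand, which is the known site for ATF6 and XBP1 beside NF-Y. TXNIP comes last, with the carbohydrate response element of the MondoA factor, a pair of CACGNG boxes 5 bases apart. Bases are 5′ to 3′ on the gene's strand, and capitals mark the motif.
HSPA5, minus strand, chr9:125241344-125241593: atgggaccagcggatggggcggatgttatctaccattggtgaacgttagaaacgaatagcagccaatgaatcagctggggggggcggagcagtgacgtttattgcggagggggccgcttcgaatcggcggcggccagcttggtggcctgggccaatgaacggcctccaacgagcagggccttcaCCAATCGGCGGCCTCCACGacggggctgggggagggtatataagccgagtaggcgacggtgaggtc
HSP90B1, plus strand, chr12:103930160-103930409: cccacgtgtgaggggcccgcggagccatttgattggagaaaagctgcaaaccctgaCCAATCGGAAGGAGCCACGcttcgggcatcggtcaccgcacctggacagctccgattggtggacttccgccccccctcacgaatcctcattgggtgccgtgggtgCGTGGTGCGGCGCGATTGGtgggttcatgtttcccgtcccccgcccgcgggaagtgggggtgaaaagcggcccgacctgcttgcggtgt
TXNIP, minus strand, chr1:145996580-145996829: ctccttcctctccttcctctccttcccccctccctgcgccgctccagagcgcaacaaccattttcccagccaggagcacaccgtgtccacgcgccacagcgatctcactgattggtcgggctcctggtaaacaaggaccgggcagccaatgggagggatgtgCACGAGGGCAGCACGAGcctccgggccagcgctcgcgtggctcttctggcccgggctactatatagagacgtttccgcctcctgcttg
The motif lay 66 to 48 bases before the start of HSPA5, at 194 to 176 and again at 89 to 71 bases before the start of HSP90B1, and 88 to 72 bases before that of TXNIP. Other matches were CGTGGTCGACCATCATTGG in CALR, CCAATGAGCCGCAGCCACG in PDIA6 and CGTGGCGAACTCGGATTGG in CRELD2. SDF2L1 held the shorter element II, in which ATTGG and CCACG are 1 base apart, as CGTGGACCAAT; it shares the CCACG and CCAAT letters with the longer motif.

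Searched on both strands, the ER stress response element was present in 16 of the 11405 tested genes with a window (0.14%) and in 25 of 27305 RefSeq windows in all (0.0916%). It was present in 7 of the 35 ER lumen chaperones with a window (20.0%), namely CALR, CANX, CRELD2, ERO1B, HSP90B1, HSPA5 and PDIA6. Among genes called at least 2-fold lower it was present in 11 of 208 (5.29%), and among genes called at least 2-fold higher in 0 of 76. Element II was present in 14 of 11405 tested genes (0.123%), among them HYOU1, SDF2L1 and HERPUD1. A match is a string of letters and not evidence of binding in these cells.

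Most chaperones and folding enzymes of the ER lumen fell. Of 37 measured genes 25 fell and 0 rose, against 6.09% and 4.11% of all genes, and the median log2 fold change of the list was -1.07, against 0.03 over all genes. Without restricted library 2 and control library 1, 30 fell and 1 rose, and with equal totals 24 fell and 1 rose. HSPA5 had 7224, 7540.1, 7071, 7038 and 7340 normalised counts in restricted libraries 1 to 5, against 43743, 41903, 41481, 44230.1 and 39965 in control libraries 1 to 5. The restricted values of this ER member of the HSP70 family lay within a narrow band far below the control values, and the libraries that stood apart did not stand apart here. The fall was 5.83-fold (log2 fold change -2.54, SE 0.08, adjusted p = 2.99e-09). CALR had 16648, 19028, 16620.2, 17487 and 17933 normalised counts in restricted libraries 1 to 5, against 101954, 81004, 74683, 84448 and 74550.2 in control libraries 1 to 5. Calreticulin, the lectin chaperone it encodes, was highest in control library 1, and the groups stayed clearly apart (log2 fold change -2.24, SE 0.11).

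SDF2L1 had 602, 1044, 603, 605 and 659 normalised counts in restricted libraries 1 to 5, against 6898, 3479, 3241, 4429 and 3264 in control libraries 1 to 5. SDF2L1 encodes a cofactor of BiP, and restricted library 2 and control library 1 were each the highest of their group; without both of them the log2 fold change was -2.53, against -2.57 with them. MANF, which encodes a secreted ER stress protein, averaged 1691 ± 346 normalised counts under restriction and 9347 ± 878 in control (SD, n = 5 each). CRELD2, an ER-resident disulphide isomerase-like gene, averaged 438 ± 122 and 2449 ± 525. Both had no overlap between groups. The disulphide isomerase PDIA4 averaged 2889 ± 169 under restriction and 13802 ± 1302 in control, and PDIA6 averaged 3500.2 ± 266 and 14021 ± 414. HYOU1, the large ER HSP110 that exchanges nucleotide on BiP, had a log2 fold change of -1.54, and DNAJB9, a BiP co-chaperone, -1.58. The list was not uniform: log2 fold changes ran between -2.81 and 0.30, and the glucosidase gene MOGS was at the upper end with 0.30, which did not pass the test (adjusted p = 0.165) but did over 8 libraries (0.32, adjusted p = 0.0295).

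**Figure D3:**
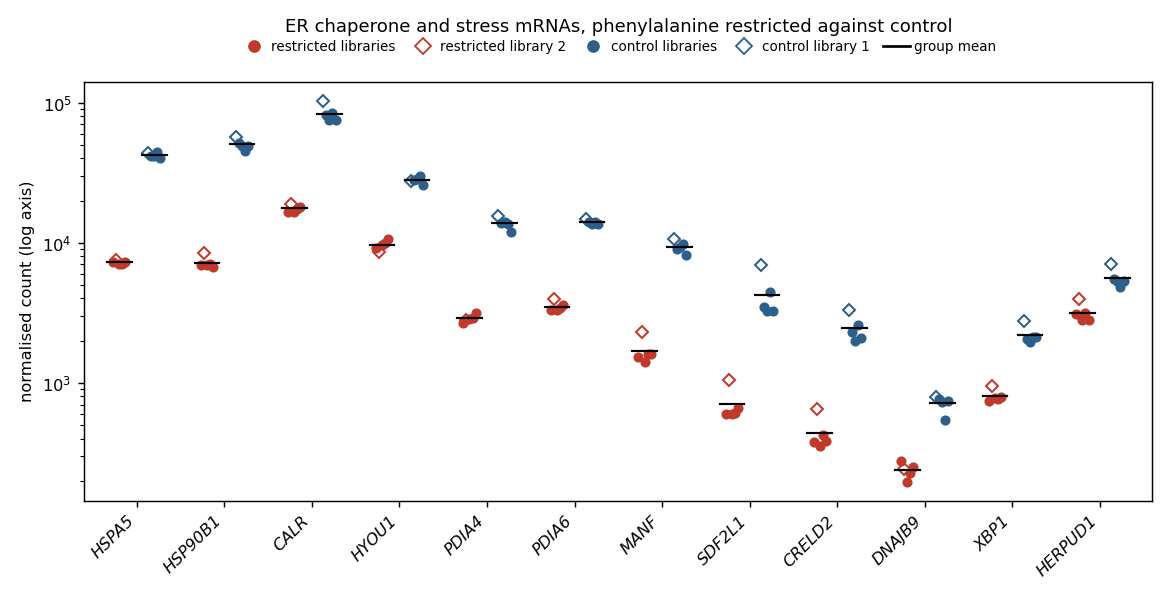
Normalised counts (log axis) of 12 ER genes in the 5 restricted (red, left) and 5 control (blue, right) libraries; open diamonds mark restricted library 2 and control library 1, and the black line is the group mean. In each of HSPA5, HSP90B1, CALR, PDIA4 and MANF all restricted libraries sit below all control libraries, with HSPA5 at a mean of 7243 under restriction and 42264 in control.

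Among 17 sensors and factors of the unfolded protein response (17.6% called, against 10.2% of all genes) 2 fell and 1 rose. Over 8 libraries 7 fell and 2 rose. XBP1 had 744, 948, 773, 762 and 793 normalised counts in restricted libraries 1 to 5, against 2754, 2051, 1963, 2134 and 2136 in control libraries 1 to 5. XBP1 encodes the factor whose mRNA is spliced by the sensor IRE1; its restricted values were all below its control values (log2 fold change -1.45, SE 0.11, adjusted p = 1.08e-05). The deposited counts do not separate its spliced from its unspliced form. CREB3L4 fell as well (-0.60), whereas TMBIM6, which encodes an ER membrane protein that inhibits BAX and IRE1, rose (0.53). The sensor genes themselves did not pass the test over 10 libraries, with log2 fold changes of -0.03 for ERN1 (IRE1), -0.39 for EIF2AK3 (PERK) and 0.15 for ATF6. EIF2AK3, however, was called lower without control library 1 alone (-0.80, adjusted p = 0.00535) and over 8 libraries (-0.71, adjusted p = 0.00244). In the window of XBP1 the ER stress response element was also found.

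Genes of ER-associated degradation, which returns misfolded proteins to the proteasome, fell in 7 of 28 cases and rose in 0, with a median of -0.18. DERL3 had 1.29, 2.38, 0, 2.73 and 2.93 normalised counts in restricted libraries 1 to 5, against 31.0, 44.6, 40.9, 35.4 and 38.7 in control libraries 1 to 5. The restricted values of this derlin gene were near the lower limit of measurement, and its log2 fold change of -3.92 had a wide error (SE 0.48). HERPUD1 (-0.82) and SYVN1 (-0.82), which encode the scaffold and the ubiquitin ligase HRD1 of the same complex, fell, as did its adaptor SEL1L (-0.66) and the extracting ATPase VCP (-0.47). Over 8 libraries 13 fell and 1 rose, with equal totals 3 fell and 2 rose, and without control library 2 alone 3 fell.

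Genes for protein entry into the ER and for its glycosylation and export fell in part. Of 25 genes for translocation and signal cleavage 8 fell and 1 rose, and 16 fell and 5 rose without restricted library 2 and control library 1. The falls included SSR2 (-1.01) and SSR4 (-0.88) of the translocon-associated complex, SEC61A1 (-0.34) of the channel, and SPCS2 (-0.77) and SPCS3 (-0.79) of signal peptidase. SRP54, the GTPase of the signal recognition particle, rose (0.34). Among 31 genes of N-glycosylation 11 fell and 0 rose, and 15 fell and 1 rose over 8 libraries. Subunits of the oligosaccharyltransferase were among those that fell, with OSTC at -1.23, RPN1 at -1.07 and MAGT1 at -0.95. Among 42 genes of ER to Golgi transport 14 fell and 0 rose, including the KDEL receptor KDELR1 (-0.98), the cargo receptor TMED2 (-0.98) and the COPII coat gene SEC24D (-0.82). Without restricted library 2 and control library 1, 28 of these transport genes fell and 1 rose; leaving out single libraries gave between 9, without restricted library 5, and 23, without control library 1. The falls in translocation numbered 5 without restricted library 1, and those in N-glycosylation 6 without control library 2.

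The level from which HSPA5, the ER chaperone compared here, fell differed between controls of the series. Values of separately normalised tables are given side by side without a test. HSPA5 was 7243 ± 206 normalised counts under phenylalanine restriction, against 42264 ± 1738 in its control. It was 7795 ± 523 under valine restriction and 4297 ± 356 under leucine restriction, against 53874 ± 2334 and 50550.2 ± 1756 in the branched-chain controls as scaled in those tables. It was 3659.7 ± 274, 6911 ± 544 and 3789 ± 128 under restriction of histidine, methionine and tryptophan, against 8575 ± 1547, 8653 ± 559 and 7577 ± 229 in their controls. The restricted phenylalanine libraries thus lay, each in its own scaling, near the level of the histidine, methionine and tryptophan controls, and the phenylalanine controls lay near the branched-chain controls and isoleucine-restricted cells, at 51262 ± 3534. Whether a higher level in these controls or a lower level under restriction sets the difference cannot be told apart here. TXNIP did not share the gap of HSPA5 between the phenylalanine and histidine controls. It was 352 ± 179 in the phenylalanine controls and 673 ± 484 in the histidine controls, against 9167 ± 496 under phenylalanine restriction.

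**Figure D4:**
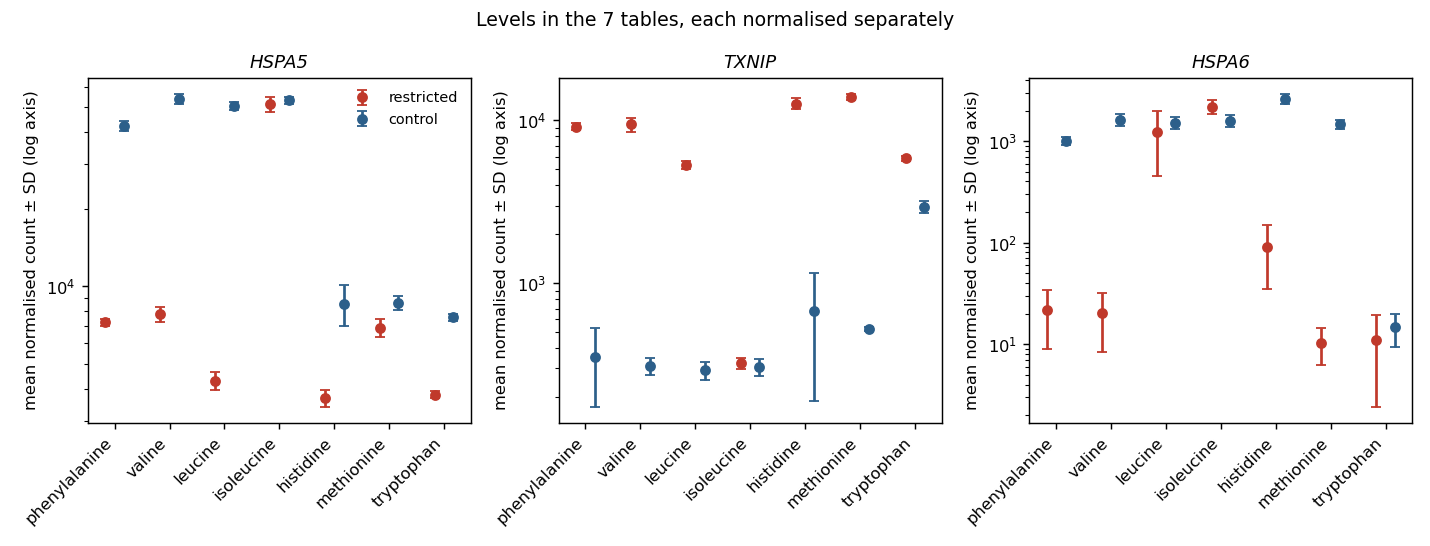
Mean normalised counts ± SD of HSPA5, TXNIP and HSPA6 in the restricted (red, left of each pair) and control (blue, right) groups of the 7 amino acids, each from its own table and with its own scaling. HSPA5 is high in the phenylalanine control at 42264 and low in the histidine control at 8575, whereas TXNIP is low in both, at 352 and 673.

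Inducible cytosolic heat-shock genes took 3 of the 4 largest falls under the naming rule. Of 23 measured genes 6 fell and 3 rose, and 9 fell and 5 rose over 8 libraries. HSPA6 had 14.5, 30.5, 6.76, 17.7 and 37.9 normalised counts in restricted libraries 1 to 5, against 1181, 961, 978, 946 and 1000.2 in control libraries 1 to 5. HSPA6, a strictly inducible HSP70 gene, was thus low in every restricted library and high in every control library (log2 fold change -5.70, SE 0.36, adjusted p = 2.12e-06). Side by side and without a test, its mean was 1519 normalised counts in the branched-chain controls of the leucine comparison and 1223 under leucine restriction. Whether a raised control level or a lower level under restriction sets the difference for HSPA6 cannot be told apart here. HSPA1B had 321, 449.6, 337, 344 and 432 normalised counts in restricted libraries 1 to 5, against 5507, 7495, 6401, 6646 and 6127 in control libraries 1 to 5. HSPA1A and HSPA1B encode the same inducible HSP70 protein and their reads are hard to assign between them; they had log2 fold changes of -4.90 and -4.10. DNAJB1, the HSP40 partner of inducible HSP70, had 2502, 2685, 2235, 2406 and 2329 normalised counts in restricted libraries 1 to 5, against 5570.1, 6924, 6364, 6744 and 6042 in control libraries 1 to 5 (log2 fold change -1.38). HSP90AB1 (-0.46) and the co-chaperone BAG3 (-0.36) fell less. The rises were DNAJA1 (0.88), CHORDC1 (0.79) and STIP1 (0.43), which act with HSP70 or HSP90, while constitutive HSPA8 had -0.04 (adjusted p = 0.839).

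The heat shock element, searched as GAA, TTC and GAA with 2 bases between each, was present in 7 of the 21 heat-shock chaperones with a RefSeq window (33.3%) and in 49 of the 11405 tested genes with one (0.43%), on either strand. HSPA1A, HSPA1B and DNAJB1 were not among the 7. The element was present in 1 of 208 genes called at least 2-fold lower (0.481%) and in 2 of 76 called at least 2-fold higher (2.63%). Its match in HSPA6, printed because that gene fell most, was TTCGCGAAAGTTC, 74 to 62 bases before the start on chromosome 1. The 7 genes did not move together, since CHORDC1 rose (0.79) while HSP90AB1 and HSPA6 fell, and HSP90AA1 (-0.24, adjusted p = 0.282) and HSPD1 (-0.16, adjusted p = 0.256) did not pass the test. Over 8 libraries HSP90AA1 was called lower (-0.16, adjusted p = 0.0446). Of 8 subunits of the chaperonin TRiC, which folds actin and tubulin, 1 fell, CCT8 (-0.39), and 2 fell and 2 rose over 8 libraries. The 12.5% called over 10 libraries was near the 10.2% over all genes. Subunits of the constitutive proteasome went the other way: 5 of 31 rose and 0 fell, with a median of 0.25. The rising subunits were PSMC2 (0.59), PSMC3 (0.59), PSMD11 (0.45) and PSMD12 (0.52) of the regulatory particle and PSMB2 (0.41) of the core. Without restricted library 2 and control library 1, 15 subunits rose and 5 fell.

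Arrestin genes that answer to the glucose-sensing factor MondoA had the largest rises among the list members called. TXNIP had 9026, 8775, 9558, 9809 and 8669 normalised counts in restricted libraries 1 to 5, against 671, 284, 273, 253 and 281 in control libraries 1 to 5. TXNIP encodes an inhibitor of thioredoxin and of glucose uptake; its restricted values were alike and far above the control values (log2 fold change 4.81, SE 0.23, adjusted p = 1.48e-07). ARRDC4 had 380.0, 349.7, 460.2, 515 and 366 normalised counts in restricted libraries 1 to 5, against 105, 60.5, 35.8, 55.7 and 66.0 in control libraries 1 to 5. The paralogue ARRDC4 also showed no overlap (log2 fold change 2.73, SE 0.24). In the network of 19 measured genes 3 rose and 1 fell, and 4 rose and 5 fell over 8 libraries. Beside the arrestins, MAX, the partner of MYC, rose (0.33) and MYCL fell (-0.55). MLXIP, which encodes MondoA, had 0.03 (adjusted p = 0.887). The carbohydrate response element printed for TXNIP was present in 13 of 11405 tested genes (0.114%), P4HA1 and GFPT1 included, and P4HA1 fell (-1.59).

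Many genes of glycolysis fell. Of 31 measured genes 16 fell and 0 rose, with a median of -0.41, with 1 higher at an unadjusted p below 0.05, and with equal totals 15 fell. Over 8 libraries 22 fell and 2 rose. GAPDH had 26634, 40216, 24591, 26665 and 27483 normalised counts in restricted libraries 1 to 5, against 73819.9, 68151, 64412, 76261 and 66963 in control libraries 1 to 5. Its values did not overlap, and the log2 fold change of this abundant dehydrogenase was -1.28 (SE 0.14, adjusted p = 0.00012); its processed pseudogenes may share reads with it. The glucose carrier SLC2A1 (-1.13), hexokinase HK2 (-0.98), the isomerase GPI (-0.98), the aldolase ALDOC (-1.69), lactate dehydrogenase LDHA (-0.94) and the lactate carrier SLC16A3 (-1.29) fell with it, as did PDK1, which restrains entry of pyruvate into mitochondria (-1.26). Many of these are known targets of hypoxia-inducible factor, and of 23 hypoxia-responsive genes outside glycolysis 8 fell and 0 rose, and 13 fell and 1 rose over 8 libraries. Carbonic anhydrase CA9 (-3.04), adrenomedullin ADM (-1.65), the histone demethylase KDM3A (-0.68) and the mitophagy receptor BNIP3L (-0.35) were among them. ANKRD37 fell by the test over 10 libraries (-1.37) and lost its call without restricted library 2 and control library 1 (adjusted p = 0.0546). VEGFA had -0.12 and did not pass over 10 libraries (adjusted p = 0.527), but was called lower over 8 (-0.22, adjusted p = 0.0445).

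Most genes of cholesterol synthesis fell. Of 22 measured genes of cholesterol synthesis 14 fell and 0 rose, with a median of -0.58, and 17 fell and 1 rose over 8 libraries. They reached from the early steps to the late ones, with MVD at -0.85, farnesyl-diphosphate farnesyltransferase FDFT1 at -0.71, squalene epoxidase SQLE at -0.78 and 7-dehydrocholesterol reductase DHCR7 at -0.77. Of 18 genes for sensing, uptake and export 7 fell and 0 rose, and 9 fell and 2 rose over 8 libraries. STARD4 had 706, 376, 466, 520.4 and 422 normalised counts in restricted libraries 1 to 5, against 1137, 1269, 1382, 927 and 1417 in control libraries 1 to 5. The values of this cytosolic sterol carrier gene were all lower in restricted than in control libraries (log2 fold change -1.32, SE 0.17, adjusted p = 0.000551). The lysosomal sterol binder NPC2 had -1.04, and the exporter ABCG1, which is known to be induced when sterols are ample, also fell (-0.51). Of 17 genes of fatty acid synthesis 5 fell and 0 rose, and 10 fell and 0 rose over 8 libraries. The desaturases led: SCD averaged 4981 ± 909 normalised counts under restriction and 13664 ± 2044 in control, FADS2 averaged 1488 ± 140.2 and 3561 ± 499.7, and FADS1 averaged 1487 ± 154 and 2566 ± 720.3 (SD, n = 5 each). Without control library 2 alone 2 of these genes fell, and without control library 1 alone 8. FASN had -0.17 and did not pass the test (adjusted p = 0.545).

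Over 10 libraries genes close to phenylalanine itself passed the test at shares near the 10.2% called over all genes. Of 14 measured genes of phenylalanine and tyrosine metabolism (7.14% called) 0 rose and 1 fell, the transaminase gene KYAT3 (-0.38); TAT, HPD, HGD, IL4I1 and DDC had means under 10. Among 16 carriers (12.5% called) 0 rose and 2 fell. With equal totals 2 rose and 0 fell in the metabolism list, and 0 rose and 1 fell among the carriers. KYAT3 and the carrier SLC38A2 lost their calls there (adjusted p = 0.0975 and 0.0502 in limma). Over 8 libraries, where 25.5% of all genes were called, 2 rose and 3 fell in the first list and 1 rose and 7 fell among the carriers. Both lists then held a larger share of calls than all genes. The share of carriers that fell exceeded the 13.7% of all genes called lower in that setting. SLC7A5 had 34677, 26478, 37118, 35654 and 40171 normalised counts in restricted libraries 1 to 5, against 22796, 30408, 32179, 34603 and 26984 in control libraries 1 to 5. This light chain of the main carrier of phenylalanine, LAT1, overlapped between groups (log2 fold change 0.25, SE 0.14, adjusted p = 0.314). SLC7A5 was called higher over 8 libraries (0.25, adjusted p = 0.0441) and with library weights (0.27, adjusted p = 0.0201). The falls were SLC43A1, a facilitated carrier of large neutral amino acids (-0.75), and SLC38A2, a sodium-coupled neutral carrier (-0.60).

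The subunits of phenylalanyl-tRNA synthetase did not pass the test over 10 libraries, but FARSA did without restricted library 2. FARSA had 3356, 5091, 3142, 3256 and 3561 normalised counts in restricted libraries 1 to 5, against 6261, 4621, 4639.5, 5372 and 3986 in control libraries 1 to 5. The groups overlapped, and the log2 fold change of FARSA was -0.44 (SE 0.15, adjusted p = 0.0902), that of FARSB 0.22 (adjusted p = 0.141) and that of mitochondrial FARS2 -0.03 (adjusted p = 0.939). Restricted library 2 had the highest restricted value of FARSA; without it FARSA was called lower (-0.56, adjusted p = 0.0102), as it was over 8 libraries (-0.48, adjusted p = 0.00204). FARSB was called higher with equal totals (0.34, adjusted p = 0.0214). Of 23 cytosolic synthetases 1 rose and 7 fell, and 3 rose and 10 fell over 8 libraries. The falls included QARS1 (-1.20), GARS1 (-0.88), WARS1 (-0.65), AARS1 (-0.59), SARS1 (-0.43) and EPRS1 (-0.37), which charge glutamine, glycine, tryptophan, alanine, serine and glutamate with proline. The synthetase for methionine, MARS1, rose (0.55). With equal totals 4 rose and 5 fell. Of 17 mitochondrial synthetases (11.8% called, against 10.2% of all genes) CARS2 (0.51) and VARS2 (0.45) rose and 0 fell. Over 8 libraries 4 of the 17 rose and 4 fell. Of 10 genes for wybutosine, the modified base beside the anticodon of phenylalanine tRNA, 10% were called, near the share over all genes. TYW3 rose (0.36) and 0 fell, and 3 rose and 1 fell over 8 libraries.

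Targets of ATF4 were lower where they passed the test over 10 libraries. Of 29 measured targets 0 rose and 6 fell, with a median of -0.15, and at an unadjusted p below 0.05 in limma 1 were higher and 9 lower; without restricted library 2 and control library 1, 2 rose and 10 fell. ASNS had 456, 333, 276, 185 and 179 normalised counts in restricted libraries 1 to 5, against 469, 593, 529.7, 455 and 549 in control libraries 1 to 5. Asparagine synthetase, a textbook target of ATF4, fell, although restricted library 1 lay within the range of the lowest controls (log2 fold change -0.94, SE 0.23, adjusted p = 0.0234). DDIT4, which encodes the mTORC1 inhibitor REDD1, averaged 1399.6 ± 277 normalised counts under restriction and 4356 ± 607 in control (SD, n = 5 each). Enzymes of proline and serine synthesis fell as well, with PYCR1 at -1.01, PHGDH at -0.57 and mitochondrial SHMT2 at -0.85. TRIB3 (0.24, adjusted p = 0.189), CHAC1 (0.31, adjusted p = 0.255) and DDIT3 (-0.57, adjusted p = 0.0613) did not pass the test over 10 libraries. DDIT3, which encodes the stress factor CHOP, was called lower without restricted library 2 alone (-0.75, adjusted p = 0.000684) and over 8 libraries (-0.73, adjusted p = 0.000298). TRIB3 was called higher over 8 libraries (0.21, adjusted p = 0.0292). Of 18 genes around eIF2 11.1% were called, near the 10.2% over all genes. Its alpha subunit EIF2S1 rose (0.45), its gamma subunit EIF2S3 fell (-0.45), and EIF2AK4 had 0.10 (adjusted p = 0.578). Over 8 libraries 3 of the 18 rose and 5 fell. Of 38 genes of amino acid sensing upstream of mTORC1 5.26% were called, less than over all genes. AKT1S1, which encodes the mTORC1 inhibitor PRAS40, rose (0.71) and ITFG2 of the KICSTOR complex fell (-0.54). Over 8 libraries 5 of the 38 rose and 5 fell.

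Messenger RNA of the translation apparatus was lower. Of 78 cytosolic ribosomal protein genes 32 fell and 0 rose, with a median of -0.61, and 73 fell without restricted library 2 and control library 1, the libraries where their share of counts was highest. Without restricted library 2 alone 58 fell, and without restricted library 1 alone 17. Reads of these genes can be split with pseudogenes. Translation factors whose mRNAs carry the same 5′ terminal oligopyrimidine (TOP) tract, through which mTORC1 is known to control their translation, fell in 16 of 20 cases and rose in 0, and fell in 17 over 8 libraries. EEF2 had 44057, 46936, 42309.5, 43055 and 48412 normalised counts in restricted libraries 1 to 5, against 88109, 117471, 115989, 140933 and 108854 in control libraries 1 to 5. Elongation factor 2 showed no overlap between groups (log2 fold change -1.33, SE 0.13, adjusted p = 5.69e-05). The initiation factor gene EIF3L had -1.82, the histone chaperone gene NAP1L1 -1.47, RACK1, a component of the small subunit, -1.25, and EEF1A1 -0.98.

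Nucleolar genes did not fall as a group. Of 34 ribosome biogenesis factors 14.7% were called, near the 10.2% over all genes, with 4 higher and 1 lower. Without restricted library 2 and control library 1, 12 rose and 6 fell, against 11.8% and 13.7% of all genes. RRP9 (0.53), RRP12 (0.46), WDR12 (0.40) and dyskerin DKC1 (0.34) rose, and nucleolin NCL fell (-0.40). Host genes of small nucleolar RNAs have spliced transcripts that carry TOP tracts and are degraded when translated. Of 22 such genes 22.7% were called, with 5 higher and 0 lower, and 5 rose and 2 fell over 8 libraries. GAS5 had 11805, 17807, 11423, 11987 and 10116 normalised counts in restricted libraries 1 to 5, against 6069, 5806, 4752, 5068 and 5827 in control libraries 1 to 5. Each restricted value exceeded each control value of GAS5 (log2 fold change 1.18, SE 0.14, adjusted p = 0.000336). ZFAS1 (1.36) and SNHG12 (1.18), which lie antisense to coding genes, SNHG15 (0.92) and SNHG32 (0.55) were the others; whether reads were counted by strand is not stated in what was available. Of 13 mitochondrially encoded mRNAs (7.69% called, against 10.2% of all genes) MT-CYB rose (0.77). The median over the list was 0.35, and 2 rose over 8 libraries.

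**Figure D5:**
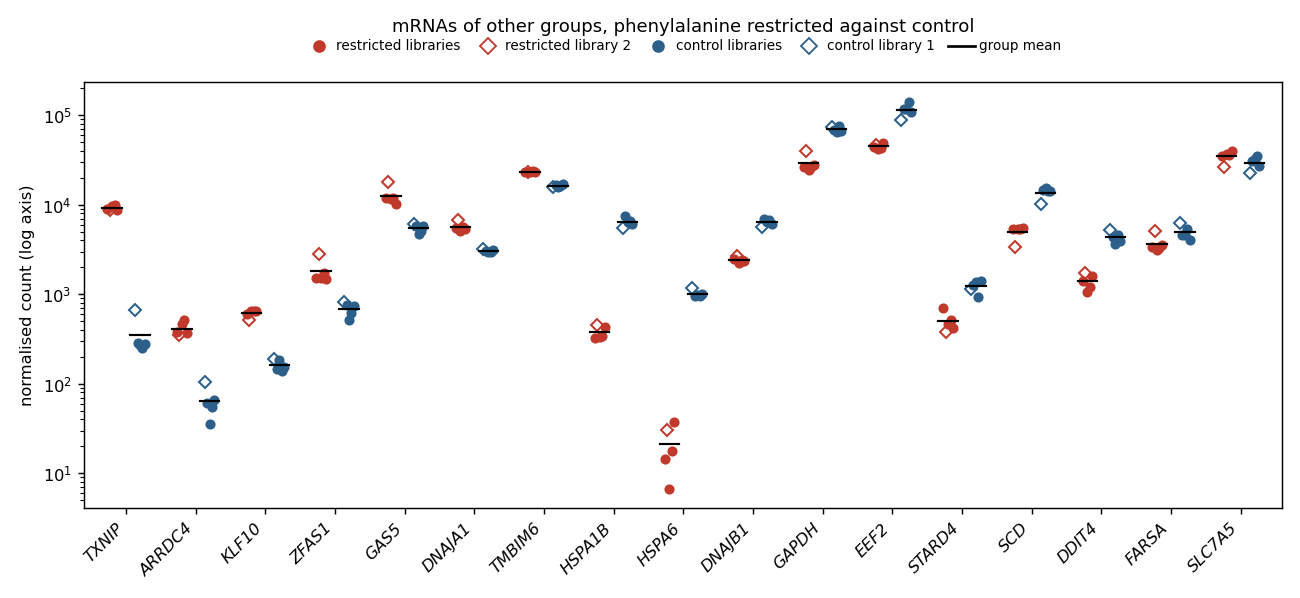
Normalised counts (log axis) in the 5 restricted (red, left) and 5 control (blue, right) libraries for genes of the arrestin, host gene, heat-shock, glycolysis, translation, sterol, ATF4 and phenylalanine groups; open diamonds mark restricted library 2 and control library 1 and the black line is the group mean. TXNIP, ARRDC4, KLF10, ZFAS1 and GAS5 are higher in every restricted library, HSPA6 and HSPA1B are lower in every restricted library, and FARSA and SLC7A5 overlap between groups.

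DNA replication and mitosis genes fell in part. Of 42 replication genes 11 fell and 0 rose, with a median of -0.18, and 20 fell and 0 rose over 8 libraries. The licensing factor CDT1 (-1.12), the primase PRIM1 (-1.11), the origin binder ORC1 (-0.98) and thymidine kinase TK1 (-0.90) were among the falls, and without restricted library 2 alone 17 fell. The replication clamp gene PCNA had 0.12 (adjusted p = 0.602). Of 34 mitosis genes 14 fell and 0 rose, with a median of -0.32, and 18 fell and 0 rose over 8 libraries. Without control library 2 alone 9 of them fell. The kinesin KIF2C (-0.83) and the centriole kinase PLK4 (-0.71) fell, and the proliferation antigen MKI67 had -0.17 and did not pass (adjusted p = 0.713). Of 17 nucleotide synthesis genes 3 fell, IMPDH2 (-1.11), GMPS (-0.58) and PRPS2 (-0.48), the first 2 of which act on guanine nucleotides, and DHODH of pyrimidine synthesis rose (0.43); over 8 libraries 6 fell and 2 rose. Of 19 genes of serine and one-carbon synthesis 5 fell and 0 rose (6 and 1 over 8 libraries), with AHCY of the methionine cycle at -1.30, MTHFD1L at -0.85 and CBS at -0.76.

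Among 22 p53 targets (22.7% called, against 10.2% of all genes) 2 rose and 3 fell. Over 8 libraries, where 25.5% of all genes were called, 5 rose and 5 fell. Cyclin G1 gene CCNG1 (-1.40), the cell cycle inhibitor CDKN1A (-1.03) and BTG2 (-0.47) fell, and TIGAR (0.44) and the repair gene XPC (0.38) rose. CDKN1A averaged 59.6 ± 15.7 normalised counts under restriction and 122 ± 28.0 in control (SD, n = 5 each). Of 17 genes of the BCL2 family (17.6% called) BAK1 rose (0.44) and BNIP3 and BNIP3L fell, and BCL2 had 0.21 (adjusted p = 0.676). Over 8 libraries 1 of the 17 rose and 4 fell, a share near the 25.5% of all genes. Autophagy and lysosome genes, 38 in all, passed the test in 7.89% of cases, less than the 10.2% called over all genes. SQSTM1, the receptor p62 (0.53), and the hexosaminidase HEXA (0.50) rose and ATG13 fell (-0.34). Over 8 libraries 3 of the 38 rose and 7 fell. Of 28 genes of thioredoxin, glutathione and NRF2 3.57% were called, again less than over all genes. PGD of the pentose phosphate pathway fell (-0.97) and 0 rose, and 6 fell and 2 rose over 8 libraries.

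Genes of T cell identity and signalling passed the test at shares near the 10.2% called over all genes. Of 31 genes of T cell receptor signalling (6.45% called), LCP2, which encodes the adaptor SLP-76 (0.45), and the phosphatase PTPN6 (0.42) rose and 0 fell. Of 19 lineage factors ID2 rose (0.86) and MYB fell (-0.55). Over 8 libraries, against 25.5% of all genes, 5 rose and 5 fell in T cell receptor signalling and 5 rose and 4 fell among the lineage factors. In that setting both lists held a larger share of calls than all genes. Of 20 immediate-early factors (20% called) 4 fell and 0 rose, and 6 fell and 3 rose over 8 libraries. EGR1 had 534, 429, 525, 576 and 619 normalised counts in restricted libraries 1 to 5, against 849.8, 1572, 1284, 1781 and 1364 in control libraries 1 to 5. EGR1 is a zinc finger factor of early activation, and its log2 fold change was -1.32 (SE 0.18, adjusted p = 0.000729); FOS (-2.23), IER2 (-0.54) and IER3 (-0.74) fell too. Of 11 dual-specificity phosphatases (18.2% called), which switch off MAP kinases, DUSP2 (-0.80) and DUSP16 (-0.82) fell, and 3 fell and 1 rose over 8 libraries. Of 12 KLF factors (25% called) KLF2 (-1.14) and KLF6 (-0.42) fell and 1 rose, and 2 fell and 3 rose over 8 libraries. KLF10 had 604, 511, 652, 658 and 643 normalised counts in restricted libraries 1 to 5, against 191, 145, 184, 141 and 153 in control libraries 1 to 5. KLF10, known as a transcript induced early by TGF-beta, rose with no overlap between groups (log2 fold change 1.91, SE 0.13, adjusted p = 3.76e-06).

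Of 18 genes of HLA class I presentation 11.1% were called, near the 10.2% over all genes. HLA-F rose (0.98) and the ER peptidase ERAP1 fell (-0.48), while B2M had -0.02 (adjusted p = 0.951). Over 8 libraries 3 of the 18 rose and 3 fell. Among 31 genes of the actin cytoskeleton 7 fell and 1 rose, and 15 fell and 4 rose without restricted library 2 and control library 1. Without restricted library 1 alone 4 fell, and without restricted library 2 alone 11. The falls included ACTB (-0.70) and ACTG1 (-1.32), MYL12A (-0.91) and MYL12B (-0.89), LIMA1 (-0.55) and TPM4 (-0.36), and TPM3 rose (0.61). ACTB and ACTG1, like MYL12A and MYL12B, are near-identical pairs between which reads may be split.

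Differences from other restrictions were tested as interactions for valine and leucine, whose libraries share none with the phenylalanine comparison; valine and leucine share their controls with each other, so they are not set against each other. The phenylalanine response differed from the valine response in 113 of 16348 genes (0.691%), with 56 higher and 57 lower, and 229 without restricted library 2 and control library 1; the valine comparison on its own called 12.5% of genes. Of the 113, 0 were among the 37 ER lumen chaperones, the 78 ribosomal protein genes or the 20 TOP factors. The 23 heat-shock chaperones also held 0 of them. With 0.691% of all genes called, 0 calls in lists of these sizes do not show a response like that to valine restriction. At an unadjusted p below 0.05 in limma 7, 9, 4 and 13 genes of these lists differed, among 1975 of the 16348 genes. The median difference of the heat-shock chaperones was 0.28. In the actin cytoskeleton 4 of 31 genes differed, all lower with phenylalanine. They were ACTB with ACTG1 and MYL12A with MYL12B, the near-identical pairs between which reads may be split, so they may not be 4 separate signals. ACTB had a log2 fold change of -0.70 under phenylalanine restriction and 0.51 under valine restriction (difference -1.21, SE 0.22, adjusted p = 0.0122), and MYL12A had -0.91 and 0.35 (difference -1.26, SE 0.17, adjusted p = 0.00277). The nuclear receptor gene RXRA (-1.03 and 0.33) and the ATP-gated channel gene P2RX7 (-1.13 and 0.16) were lower with phenylalanine as well, by differences that did not hold with every library. That of RXRA was lost in 7 of 10 fits that left out 1 library, namely restricted libraries 1, 3, 4 and 5 and control libraries 2, 4 and 5, with adjusted p-values up to 0.0865. That of P2RX7 was lost without restricted library 4, control library 2 or control library 5 (up to 0.0546). Higher with phenylalanine were PDLIM1, a PDZ and LIM domain gene that fell under both (-0.70 and -2.12), and ZNF530, PRX, ATPAF1 and DNAAF10, with differences of 1.54, 1.11, 1.05 and 1.00. The difference of DNAAF10 was lost in 7 of these 10 fits, those that omitted restricted libraries 1, 3, 4 and 5 and control libraries 3 to 5 (adjusted p up to 0.0709). The Notch target HES1 had -0.16 under phenylalanine and 2.52 under valine restriction (adjusted p = 0.0056), and the box C/D protein gene NOP56 had 0.37 and 1.36 (adjusted p = 0.0187); these are members of the 19 lineage factors and the 34 biogenesis factors.

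The phenylalanine response differed from the leucine response in 756 of 16155 genes (4.68%), with 330 higher and 426 lower, a balance that turned with equal totals, to 648 higher and 310 lower; the leucine comparison on its own called 7.75% of genes. Of the 23 heat-shock chaperones 5 were lower with phenylalanine. HSPA6 had a log2 fold change of -5.70 under phenylalanine restriction and -0.63 under leucine restriction (difference -5.08, SE 0.64, adjusted p = 0.000243), and HSPA1B had -4.10 and -0.62. Of the 37 ER lumen chaperones 5 were higher with phenylalanine, that is, had fallen less or risen. HSPA5 had -2.54 under phenylalanine and -3.56 under leucine restriction (difference 1.02, SE 0.11, adjusted p = 6.34e-05), and DNAJB11 had -1.07 and -1.88. Cell cycle genes were lower with phenylalanine, 14 of 42 replication genes and 9 of 34 mitosis genes. The replication factor gene GINS1 had -0.15 under phenylalanine and 0.90 under leucine restriction, and PRIM1 had -1.11 and -0.10. Hypoxia-responsive genes were lower in 5 of 23 cases, with BNIP3 at -1.36 under phenylalanine and -0.02 under leucine restriction. EIF3L had -1.82 and 0.51, and of the 20 TOP factors 7 were lower with phenylalanine. MYL4 had -5.03 and -1.46, and HSPA1A had -4.90 and -2.07, a difference lost in 7 of the 10 fits, those that omitted restricted libraries 1, 2 and 5 and control libraries 2 to 5 (adjusted p up to 0.0646). The largest positive differences were those of SUOX (2.43), MZF1-AS1 (2.09), CLUHP10 (2.06), the kinase gene WNK4 (2.01) and ZNF530 (2.00) among well-expressed genes without overlap in the phenylalanine table, where SUOX itself was not called over 10 libraries (adjusted p = 0.0597) and was called higher over 8 (0.89, adjusted p = 0.00421). Across genes, as a description, the log2 fold changes of phenylalanine restriction correlated with those of valine restriction at r = 0.53 over 16348 genes and with those of leucine, histidine, methionine, tryptophan and isoleucine restriction at 0.29, 0.29, 0.27, 0.12 and 0.08 over 16155 to 16447 genes; genes are not independent replicates.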

How the data were processed

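Column-purified RNA of Jurkat cells, 1 µg per library, was made into strand-specific libraries, per the labels' protocols. Build GRCh38 and 3 tools, DESeq2 1.44.0, kallisto 0.50.1 and FastQC 0.11.9, are listed per the submitters' processing notes; no source used here gives the strand setting of the counting. The authors deposited a table for each amino acid whose values are labelled as DESeq2-normalised counts, a signal per gene scaled within that table. Whole reads could not be recovered (at most 80.0% of low values in a library came out whole within 0.1), so no count test was run, depth stays approximate, and normalised totals were 15616708 to 17103039 per restricted and 17058162 to 18119331 per control library.

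Log2(normalised count + 1) of the 17021 genes with a mean of at least 10 was tested with limma 3.58.1 in R 4.3.3 (empirical Bayes with trend, two-sided), with Benjamini-Hochberg adjustment over all genes and a threshold of 0.05. A log2 fold change is on this scale and understates low genes. Differences from valine and leucine were interaction terms, each group on its own table's values. The members and the 50 gene lists were chosen with earlier results of these data known. Genes named were the 15 largest rises and 15 largest falls without overlap and with a higher group mean of at least 100, members of the lists, and the 5 largest differences in each direction. Alternatives were the pseudocount, the filter, the scaling, library weights, a fit without trend, the replicate number as a block and leaving out libraries. Promoter windows came from RefSeq (GRCh38.p14). Tests were tried on simulated data first.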

Additional observations from a re-analysis of the deposited data

Results flagged for a closer look

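In each group of 5 libraries the highest or lowest value was set against the others by Dixon's test, which flags about 1 in 20 groups by chance; the genes here are those named in the report. Control library 1 and restricted library 2 account for most of them. Messenger RNA of ribosomal proteins took 10.1% of counts in restricted library 2 and 12.9% in control library 1. The median correlation of control library 1 with its group was 0.874. Counts of 5.8S ribosomal RNA were 452 in restricted library 2, against 209 to 249 in the other restricted libraries, and 2168 in control library 1, against 211 to 304 in the other controls. Control library 1 held 21 genes above 100 normalised counts that were under 5 in every other library, and restricted library 2 held 1.

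Restricted library 2 was the highest of its group for ALDOC at 424, B2M at 12606, CRELD2 at 652, FARSA at 5091, FDFT1 at 2811, GAPDH at 40216, GAS5 at 17807 and HSP90AB1 at 23540.4 normalised counts. It also stood above its group for HSP90B1 at 8413, IER3 at 288, KLF2 at 576, MANF at 2291, MARS1 at 8742, MVD at 969, MYL12A at 2133 and MYL12B at 1923 normalised counts. It exceeded its group as well for NOP56 at 3721, NPC2 at 378, PCNA at 4230, PGD at 2654, PHGDH at 4433, PSMC3 at 5593, PYCR1 at 1904 and RRP9 at 1907 normalised counts. It lay higher than its group for SAP25 at 699, SARS1 at 7718, SDF2L1 at 1044, SLC43A1 at 906, SLX1A-SULT1A3 at 713, SNHG12 at 551, SNHG15 at 1709 and SNHG32 at 12370.4 normalised counts. It was high besides for SSR2 at 2289.7, SSR4 at 2321, SYVN1 at 1270.1, TRIB3 at 22107, XBP1 at 948 and ZFAS1 at 2816 normalised counts. Restricted library 2 was the lowest of its group for EIF2S3 at 3451, ERAP1 at 1884, MKI67 at 3792, SCD at 3360.2, SEL1L at 3656, SLC38A2 at 2293 and TIGAR at 621 normalised counts.

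Control library 1 was the highest of its group for ACTB at 134352, B2M at 10926, COL1A2 at 564, COL3A1 at 746, EIF2S1 at 2027, ENSG00000284976 at 35.2, HSP90AA1 at 44916 and HSPA6 at 1181 normalised counts. It also stood above its group for IER3 at 458, KLF2 at 1487, MVD at 1699, NAP1L1 at 18566, PCNA at 4134, PHGDH at 6483, S100A9 at 424 and SNHG15 at 1088 normalised counts. It exceeded its group as well for TXNIP at 671 and XBP1 at 2754 normalised counts. Control library 1 was the lowest of its group for EIF2AK3 at 135, EPRS1 at 4474, ERN1 at 2089, FADS1 at 1288, MKI67 at 4124, MLXIP at 2244, MYB at 7285 and QRICH2 at 50.8 normalised counts. It also stood below its group for SCD at 10134, SUOX at 8.94 and WDR12 at 805 normalised counts.

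Single values apart from their group were BTG2 at 309 in restricted library 4, CA9 at 6.76 in restricted library 5, CDT1 at 3660.3 in control library 4, DNAJB9 at 539 in control library 4 and KCND1 at 439.7 in restricted library 1. Others were MARS1 at 6069 in control library 4, QARS1 at 5110.1 in control library 4, SNHG12 at 220.2 in control library 4, SPCS3 at 2458 in control library 4 and WNK4 at 127 in control library 2. The part of these values in the results was not tested.

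The response to phenylalanine restriction differed from that to valine restriction by the interaction test, with adjusted p-values over all genes tested between 0.00277 and 0.039 for the 10 genes named. As log2 differences, phenylalanine minus valine, the lower ones were RXRA at -1.37, MYL12B at -1.28, P2RX7 at -1.28, MYL12A at -1.26 and ACTB at -1.21. The higher ones were DNAAF10 at 1.00, ATPAF1 at 1.05, PRX at 1.11, PDLIM1 at 1.42 and ZNF530 at 1.54. ATPAF1 was not called in the phenylalanine comparison itself.

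The response to phenylalanine restriction differed from that to leucine restriction by the interaction test, with adjusted p-values over all genes tested between 0.000243 and 0.0357 for the 10 genes named. As log2 differences, phenylalanine minus leucine, the lower ones were HSPA6 at -5.08, MYL4 at -3.57, HSPA1B at -3.48, HSPA1A at -2.84 and EIF3L at -2.33. The higher ones were ZNF530 at 2.00, WNK4 at 2.01, CLUHP10 at 2.06, MZF1-AS1 at 2.09 and SUOX at 2.43. Values of each response are given in the report; SUOX was not called in the phenylalanine comparison itself.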

How the results depend on the processing

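Without a filter on low values the differences from valine and from leucine numbered 63 and 492, against 113 and 756. With a minimum mean of 100, 233 genes changed at least 2-fold and 190 differed from valine. With equal totals 1537 genes rose and 248 differed from valine. With library weights 4868 genes were called, 2331 higher and 2537 lower, 733 of them at least 2-fold, and 1467 and 2622 differed from valine and leucine. Without restricted library 2 and control library 1 the numbers were 4338, 2012, 2326, 657, 229 and 1189. Leaving out single libraries gave 1106 to 2508 calls, 381 to 1093 higher, 725 to 1478 lower, 335 to 521 at least 2-fold, 58 to 189 differences from valine and 523 to 1129 from leucine. With the replicate number as a block 803 genes were called, 244 higher and 559 lower, and 12 and 189 differed from valine and leucine; same-numbered libraries did not deviate together (correlations of their deviations between -0.19 and 0.09), and the labels give the number no shared source. Pseudocounts of 0.25 and 5, trimmed-mean factors and a fit without trend moved each of these counts by less than 1.5 times. The value of no named gene past the threshold changed sign under any of the 20 alternatives. Of 180 named genes called, 132 were called with each library left out in turn. The others were ACTB, ANKRD37, ASNS, ATG13, BAG3, BAK1, BNIP3L, BTG2, CCT8, CREB3L4, DHCR7, DHODH, DKC1, DNAAF10, EIF2S1, EPRS1, ERAP1, FADS1, H2AC19, HLA-F, ID2, IER3, ITFG2, KLF6, KYAT3, LCP2, MAX, MT-CYB, MYCL, PHGDH, PRX, PSMC3, PTPN6, RRP9, SARS1, SEC61A1, SEL1L, SLX1A-SULT1A3, SNHG15, SNHG32, SQSTM1, SRP54, SSR4, TPM4, TYW3, VCP, XPC and ZNF530. The named valine differences of RXRA, P2RX7 and DNAAF10 were lost in 7, 3 and 7 of the 10 fits without 1 library. The leucine difference of HSPA1A was lost in 7. RXRA and DNAAF10 were also lost without a filter, and RXRA and HSPA1A without trend. The replicate block removed all of these. It also removed the valine differences of ACTB, ATPAF1, PRX, ZNF530, HES1 and NOP56 and the leucine differences of MYL4, WNK4, CLUHP10 and GINS1. Named genes not called over 10 libraries were called without restricted library 2 and control library 1 in 12 cases: ATPAF1, COL1A2, MOGS, NOP56, SLC7A5, SUOX and TRIB3 higher, and DDIT3, EIF2AK3, FARSA, HSP90AA1 and VEGFA lower. The minimum mean was set over all 10 libraries, and COL1A2 reached it only through control library 1, at 564 normalised counts. Its other controls were at 0 and its restricted values at 0 to 10.1, so its call over 8 libraries rests on few reads. The balance of differences from leucine turned with equal totals, to 648 higher and 310 lower. The cause of these changes was not tested. Depth limits low genes such as CA9 and DERL3 most, whose restricted values rest on few reads.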
